A study of Mus musculus with 6 samples.

Results

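The AP-1, EGR and NR4A immediate early genes are transcription factor genes, many of which cells switch on within minutes of a stimulus. Counts were examined for 10 of them, namely Fos, Fosb, Fosl1, Fosl2, Jun, Junb, Jund, Atf3, Egr1 and Nr4a1. They were taken by symbol, and all 10 were found among the 43432 genes of the count files. The libraries were 3 labelled FID and 3 labelled Control, all of total RNA from a source labelled mouse skeletal muscle and all carrying the tag D3. The labels spell out neither FID nor D3, and the series is about mice lacking Igf1 in FAPs (fibro-adipogenic progenitors), mesenchymal cells that live between muscle fibres. Their protocols describe both frozen, embedded muscle and RNA of primary FAPs, and do not say which of these the libraries hold. Per the labels' protocols, which are the same for both groups, mice were injected with tamoxifen at 100 ug per g of body weight for 5 days from 12 to 13 weeks of age, followed by at least 1 week without it, and both sexes were used. The protocols also give 1000 ng of RNA and an RNA integrity number above 5.6. The sources used here give neither the driver of the Igf1 deletion nor the Control genotype, and do not say whether animals were pooled. Separate animals behind the libraries are not stated either, and each p-value therefore measures the spread between these 6 libraries alone, which may be technical.

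FOS proteins do not bind DNA alone. They pair with JUN proteins through a leucine zipper to form AP-1, whereas JUN proteins can also pair with each other, and ATF3 pairs with JUN proteins or with itself. EGR1 is a zinc finger factor and NR4A1 an orphan nuclear receptor, and all of these genes lie downstream of MAP kinases, serum response factor or CREB. In muscle many of them are known to be induced by injury, by contraction and by the enzymatic digestion that frees cells from tissue. None of this background was measured here.

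Igf1, the gene the model deletes, stood at 109, 107 and 81.6 CPM (counts adjusted for library size with TMM factors) in FID 1, 2 and 3, against 134, 60.4 and 106 CPM in Control 1, 2 and 3, so its whole-gene count does not check the labels. The 3 FID libraries held 8750157 to 9676812 gene counts and the 3 Control libraries 5201853 to 10093757, with Control 1 the shallowest. On the first principal component of all tested genes, FID 1 lay at -1.35, between the other FID libraries at -38.2 and -34.2 and the Control libraries at 14.8 to 35.2. It was nearer there to Control 3, at 14.8, than to either other FID library. Mature fibre transcripts were scarce, with Ckm, the muscle creatine kinase gene, and Mb, the myoglobin gene, both failing the filter on low counts. The summed level of 9 mature fibre markers was 16.5 to 27.7 CPM in FID libraries and 7.30 to 59.5 CPM in Control libraries. The libraries thus held little fibre RNA, and the labels do not say by what step. Markers of FAPs and macrophages were abundant. The summed level of 12 FAP markers was 22983 to 32603 CPM in FID libraries, against 42344 to 47658 CPM in Control libraries. That of 12 macrophage markers was 6372 to 9671 CPM in FID libraries, against 3331 to 5448 CPM in Control libraries. For 9 endothelial markers it was 1305 to 2129 CPM in FID libraries, against 4734 CPM in Control 1 and 1346 and 2040.4 CPM in the other Control libraries, and 7 pericyte and smooth muscle markers had a like order, at 652 to 832 CPM in FID libraries, against 1895 CPM in Control 1 and 732 and 821 CPM in the others. Less abundant lists separated the groups too in summed level. For 4 tenocyte markers it was 75.5 to 216 CPM in FID libraries, against 266 to 462 CPM in Control libraries. For 7 neutrophil markers it was 56.0 to 90.0 CPM in FID libraries, against 41.1 to 47.8 CPM in Control libraries. Only 1 of 3 tested tenocyte and 1 of 5 tested neutrophil markers separated singly. Averaged over the markers as log2(CPM + 1), both lists overlapped between the groups. Log2 fold changes lay below 0 for 10 of 12 FAP, 9 of 9 endothelial and 6 of 7 pericyte and smooth muscle markers, and above 0 for 12 of 12 macrophage markers. In such bulk samples, fewer cells of a type and less RNA per cell cannot be told apart, and the part of these shifts in the results below was not tested.

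Promoter sequence is shown for Fosb, Nr4a1 and Jun, which were lower in every FID library than in any Control library, and for Fos and Atf3, whose groups overlapped. RefSeq promoter windows of assembly GRCm38.p6, the assembly also called mm10, matched 8 of the 10 genes, and each line gives the 100 bases before the start listed there, 5′ to 3′ on the gene's strand. For Atf3 and Nr4a1 that start lies inside the annotated gene, downstream of its outermost start, and for Fosb the last 6 bases printed lie within the annotated first exon. In the Atf3 line, 7 bases are annotated as exon. Capitals mark matches to the motifs searched on both strands, which were TGACGTCA, TGACGT (contained in the longer form), TGACTCA, TGACATCA, GCGGGGGCG or GCGTGGGCG, TATAAA and the serum response factor CArG box.
Fos (chr12:85473790-85473889, plus strand): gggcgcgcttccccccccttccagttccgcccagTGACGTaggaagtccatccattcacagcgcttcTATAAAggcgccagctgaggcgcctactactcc
Atf3 (chr1:191183334-191183433, minus strand): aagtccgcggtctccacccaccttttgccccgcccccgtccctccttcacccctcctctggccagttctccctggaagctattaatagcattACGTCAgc
Fosb (chr7:19310046-19310145, minus strand): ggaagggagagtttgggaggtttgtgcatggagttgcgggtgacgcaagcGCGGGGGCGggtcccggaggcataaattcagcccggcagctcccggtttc
Nr4a1 (chr15:101266746-101266845, plus strand): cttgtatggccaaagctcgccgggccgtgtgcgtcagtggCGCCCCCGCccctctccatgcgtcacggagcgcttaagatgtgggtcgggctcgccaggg
Jun (chr4:95052223-95052322, minus strand): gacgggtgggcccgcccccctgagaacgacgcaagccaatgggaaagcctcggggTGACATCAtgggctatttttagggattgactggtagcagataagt

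The CREB-type core TGACGT lay at -66 to -61 in Fos and, read on the opposite strand as ACGTCA, at -8 to -3 in Atf3, counting -1 as the last base before the start. Among the 8 windows of 300 bases only these 2 held it, against 7.51% of 32851 promoter windows of the same length and 32.6% of the 43 windows of other early genes. The EGR-type motif lay at -50 to -42 in Fosb, on the opposite strand at -60 to -52 in Nr4a1, and at -79 to -71 in Fosl2, that is in 3 of 8 windows, against 3.47% of all windows and 11.6% of those of other early genes. TGACATCA, a variant of the full site, lay at -45 to -38 in Jun and in no other of the 8 windows, against 3.62% of all and 4.65% of those of other early genes. The full site TGACGTCA, the AP-1 site TGACTCA and the CArG box matched in 0 of the 8 windows, against 1.79%, 5.20% and 1.63% of all and 9.30%, 2.33% and 11.6% of those of other early genes. TATAAA was found in 2 of the 8 windows, before the start of Fos at -33 to -28 and right at the start of Junb, while 13.6% of all windows and 23.3% of those of other early genes held it. Fosl1 and Egr1 had no window, and bases outside the windows of 300 bases were not searched. A count of 0 therefore does not mean that these genes lack the site farther away. These matches describe the letters of the windows and are not evidence of binding.

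The 10 genes together took 0.671%, 0.600% and 0.584% of all gene counts in FID 1, 2 and 3, against 0.777%, 0.793% and 0.772% in Control 1, 2 and 3. The groups did not overlap in this share. It divides by the total gene counts of each library and uses no TMM factors, so it still depends on what else each library holds. Of the 10 genes, 7 averaged lower and 3 higher in FID libraries, where 52.2% of all tested genes had a log2 fold change below 0. The median log2 fold change (FID over Control throughout) was -0.57, beside -0.02 over all 12881 genes tested. By the quasi-likelihood test of edgeR, adjusted by Benjamini-Hochberg, 0 of the 10 genes passed an adjusted threshold of 0.05, as did 0% of all genes tested, the smallest adjusted p over all genes being 0.109. At an unadjusted p under 0.05, 7 of the 10 were lower and 0 higher, where 9.21% of all genes tested were lower and 9.81% higher. DESeq2 called 3 of the 10 lower, namely Fosb, Jund and Nr4a1, where it called 2.41% of all genes lower and 3.89% higher. Limma-voom with sample weights, the most permissive of the tests run, called 7 of the 10 lower and 0 higher, where it called 5.01% of all genes lower and 6.88% higher. Fosb, Fosl2, Jun and Nr4a1 were lower in every FID library than in any Control library, and 12.3% of all genes tested showed such a separation in that direction, or 25.3% in either direction. The 3 genes that averaged higher, Fos, Atf3 and Egr1, overlapped between the groups. Without FID 1, the FID library nearest the Control libraries, edgeR called Fosl1 and Nr4a1 lower, beside 76 genes lower and 283 higher of 13153 tested, and the median of the 10 was -0.69. With any other single library left out, edgeR called 0 of the 10 and 0 to 3 of all genes. The median of the 10 was then -0.56 to -0.48.

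**Figure D1:**
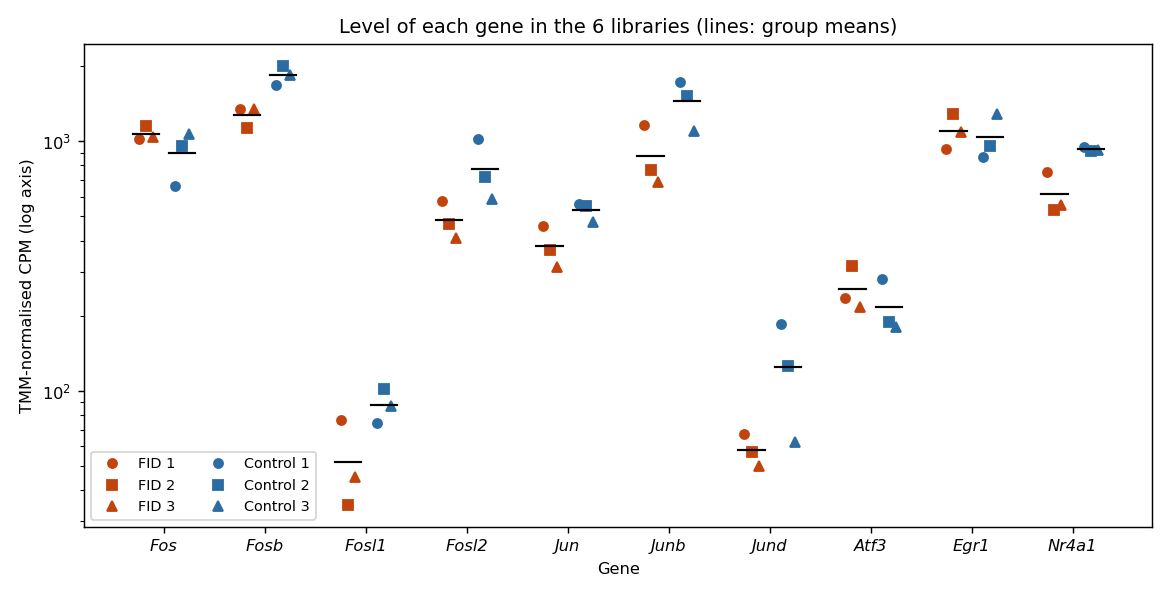
TMM-normalised CPM of the 10 genes on a log axis, with 1 symbol per library, FID libraries left of Control libraries for each gene and black lines at group means. Fosb, Fosl2, Jun and Nr4a1 show no overlap, and the lowest Control value of Jund, 62.6 CPM in Control 3, lies within the FID range.

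Among the FOS genes, Fosb, Fosl1 and Fosl2 averaged lower in FID libraries, and Fos, which did not pass any test run, averaged 0.26 higher on the log2 scale. Fos (ENSMUSG00000021250, mm10 chromosome 12, 85473890 to 85477273, plus strand, protein coding) encodes the founding FOS protein, an early AP-1 partner of JUN. It had 9012, 10932 and 9602 counts in FID 1, 2 and 3, against 3352, 9398 and 10906 counts in Control 1, 2 and 3. Scaled for depth, these were 1016, 1148 and 1037 CPM in FID libraries, against 663, 953 and 1065 CPM in Control libraries. Control 1 was the lowest library, and Control 3 lay inside the FID range. The means were 1067 ± 70.9 CPM in FID and 893 ± 207 CPM in Control (SD, n = 3 each), and the fitted log2 fold change was 0.26 (SE 0.19) with an edgeR adjusted p of 0.495. Without Control 1 it was 0.08.

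Fosb (ENSMUSG00000003545, chromosome 7, 19302696 to 19310051, minus strand) encodes a FOS relative that also exists as a truncated, long-lived splice form, which whole-gene counts do not separate. It had 11927, 10742 and 12404 counts in FID 1, 2 and 3, against 8457, 19738 and 18841 counts in Control 1, 2 and 3. These were 1344, 1128 and 1340.0 CPM in FID libraries, against 1673, 2001 and 1839.6 CPM in Control libraries. Every FID library lay below every Control library. The means were 1271 ± 124 CPM in FID and 1838 ± 164 CPM in Control (SD, n = 3 each). Its log2 fold change was -0.53 (SE 0.14), 0.691 times the Control level, with an adjusted p of 0.142 in edgeR and 0.0119 in DESeq2.

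Fosl1 (ENSMUSG00000024912, chromosome 19, 5447547 to 5455946, plus strand), which encodes FRA-1, had the lowest mean level per length of the 10 genes in both groups, with a range that overlapped that of Jund. It stood at 76.4, 35.0 and 45.0 CPM in FID 1, 2 and 3, against 74.2, 102 and 86.9 CPM in Control 1, 2 and 3, from 333 to 678 counts in FID libraries and 375 to 1008 counts in Control libraries. FID 1 lay within the Control range, and FID 2 and 3 lay below it. Fosl1 had a log2 fold change of -0.75 with an SE of 0.29, and the adjusted p was 0.221 in edgeR and 0.131 in DESeq2. Without FID 1 it was -1.12, with an edgeR adjusted p of 0.0477. With any other single library left out, the edgeR adjusted p was 0.190 to 0.546. Fosl2 (ENSMUSG00000029135, chromosome 5, 32135801 to 32157842, plus strand), which encodes FRA-2, a FOS protein of later and more lasting expression, stood at 576, 466 and 411 CPM in FID 1, 2 and 3, against 1019, 717 and 586 CPM in Control 1, 2 and 3. The groups did not overlap, but FID 1 and Control 3 lay close together. Its log2 fold change was -0.68 with an SE of 0.23 and an adjusted p of 0.194 in edgeR. Without Control 1, which held the highest level, it was -0.43. Fosl1 shares 1163 of 2033 exonic bases with Ccdc85b on the opposite strand, and the strand setting of the counting is not given, so reads in that stretch may have been set aside or shared.

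All 3 JUN genes averaged lower in FID libraries. Jun (ENSMUSG00000052684, chromosome 4, 95049034 to 95052222, minus strand, 1 exon) encodes the main activating partner of FOS proteins. It had 4056, 3499 and 2889 counts in FID 1, 2 and 3, against 2840, 5418 and 4870 counts in Control 1, 2 and 3. These were 457, 367 and 312 CPM in FID libraries, against 562, 549 and 476 CPM in Control libraries. The groups did not overlap, with FID 1 just below Control 3. For Jun the log2 fold change was -0.48 with an SE of 0.17, and the adjusted p was 0.200 in edgeR and 0.123 in DESeq2.

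Junb (ENSMUSG00000052837, chromosome 8, 84974484 to 84978718, minus strand), whose protein can activate or restrain AP-1 targets depending on its partner, had 10338, 7330 and 6350 counts in FID 1, 2 and 3, against 8731, 15027 and 11296 counts in Control 1, 2 and 3. These were 1165, 769.6 and 686 CPM in FID libraries, against 1727, 1523 and 1103 CPM in Control libraries. FID 1 lay above Control 3, so the groups overlapped. Junb had a fitted log2 fold change of -0.73 with an SE of 0.25, and the adjusted p was 0.194 in edgeR and 0.0827 in DESeq2. A stretch of 173 exonic bases is shared with Prdx2 on the opposite strand.

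Jund (ENSMUSG00000071076, chromosome 8, 70698949 to 70700616, plus strand, 1 exon), the JUN gene known for steady rather than induced expression, had the lowest fitted fold of the 10 genes. It stood at 67.4, 56.9 and 49.9 CPM in FID 1, 2 and 3, against 186, 125 and 62.6 CPM in Control 1, 2 and 3, from 462 to 598 counts in FID libraries and 641 to 1236 counts in Control libraries. The FID libraries lay close together, whereas the Control libraries spread widely, down into the FID range. For Jund the log2 fold change was -1.10 (SE 0.36), 0.468 times the Control level, with an adjusted p of 0.183 in edgeR and 0.0492 in DESeq2. It was -0.70 without Control 1 and -1.41 without Control 3. Control 1, 2 and 3 also stood in the order 4734, 2040.4 and 1346 CPM in summed endothelial markers, against 1594, 2129 and 1305 CPM in FID 1, 2 and 3. FID 2 lay above Control 2 in these markers, but stood at 56.9 against 125 CPM in Jund. The part of endothelial RNA in the fold change of Jund was not tested. Jund shares 877 of 1668 exonic bases with the antisense Gm11175, which had 0 counts in every library, so the level of Jund may miss reads of that stretch.

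Atf3, Egr1 and Nr4a1 represent other families of early factors. Atf3 (ENSMUSG00000026628, chromosome 1, 191170296 to 191218039, minus strand) encodes a stress-induced AP-1 relative that often represses its targets. It had 2088, 3010 and 2007 counts in FID 1, 2 and 3, against 1415, 1862 and 1845 counts in Control 1, 2 and 3. These were 235, 316 and 217 CPM in FID libraries, against 279.9, 189 and 180.1 CPM in Control libraries. FID 2 was the highest library, and Control 1 came next, above FID 1 and 3. The log2 fold change was 0.25 with an SE of 0.22 and an adjusted p of 0.580 in edgeR. It was 0.07 without FID 2 and 0.47 without Control 1.

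Egr1 (ENSMUSG00000038418, chromosome 18, plus strand), a zinc finger activator that responds to serum and to MAP kinases, had 8255, 12239 and 10056 counts in FID 1, 2 and 3, against 4372, 9475 and 13174 counts in Control 1, 2 and 3. These were 930.2, 1285 and 1086 CPM in FID libraries, against 865, 960.5 and 1286 CPM in Control libraries. The groups covered nearly the same range. The log2 fold change was 0.09 with an SE of 0.20 and an adjusted p of 0.846 in edgeR. Its sign turned to -0.040 without FID 2 and -0.031 without Control 1.

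Nr4a1 (ENSMUSG00000023034, chromosome 15, 101254269 to 101274795, plus strand), the gene of the nuclear receptor NUR77, had 6656, 5032 and 5150.0 counts in FID 1, 2 and 3, against 4803, 8993 and 9441 counts in Control 1, 2 and 3. These were 750.0, 528 and 556 CPM in FID libraries, against 949.9, 912 and 922 CPM in Control libraries. The Control libraries lay within a narrow band, and all FID libraries lay below it, with FID 1 nearest. The means were 612 ± 121 CPM in FID and 928 ± 19.8 CPM in Control (SD, n = 3 each). Nr4a1 had a log2 fold change of -0.60 (SE 0.16), 0.659 times the Control level, with an adjusted p of 0.148 in edgeR and 0.0250 in DESeq2. In edgeR it was 0.0470 without FID 1, and 0.145 to 0.476 with any other single library left out.

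**Figure D2:**
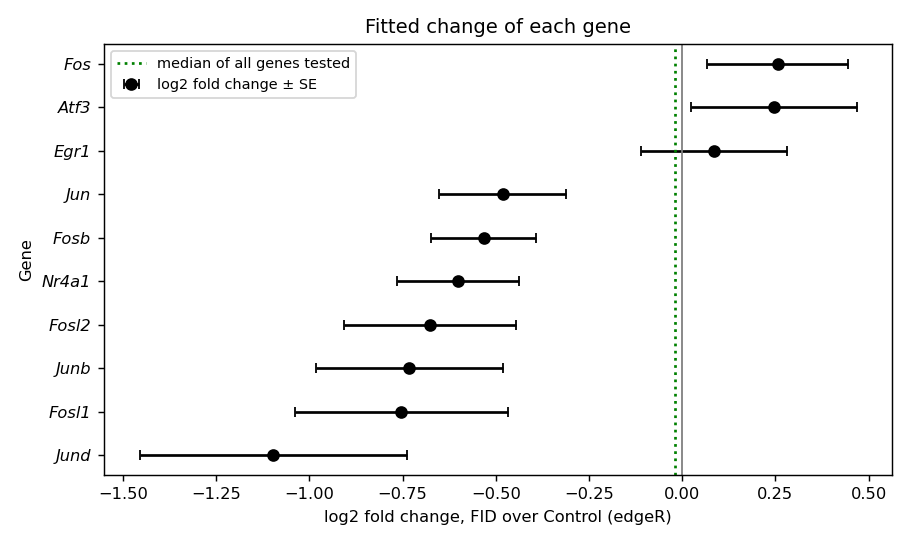
Log2 fold change of each gene, FID over Control, from edgeR, with bars of 1 standard error and a dotted line at the median of all tested genes, -0.02. Values run from -1.10 for Jund to 0.26 for Fos, with 7 genes below 0 and 3 above.

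Within a group, levels of different genes were compared per kilobase of annotated exon, on which scale each value is CPM per kilobase. In FID libraries Fos was first at 454 ± 30.2, followed by Junb at 379.6 ± 111, and their ranges over libraries overlapped. Egr1 at 245 ± 39.7, Fosb at 204 ± 19.8 and Nr4a1 at 174 ± 34.4 came next, with ranges that overlapped between neighbours. In Control libraries Junb was first at 631 ± 138, above the range of Fos at 379.9 ± 88.2. Fosb at 294 ± 26.3, Nr4a1 at 264 ± 5.65 and Egr1 at 231 ± 49.3 followed, again with overlapping neighbours (SD, n = 3 for each). Jun and Atf3 stood at 119 ± 22.9 and 119 ± 24.5 in FID libraries, and in Control libraries Jun at 166 ± 14.6 lay above the range of Atf3 at 100.4 ± 25.7. Fosl2, Jund and Fosl1 closed the order in both groups, with Jund at 34.8 ± 5.27 in FID libraries and 74.7 ± 37.0 in Control libraries, and Fosl1 at 25.6 ± 10.6 in FID libraries and 43.2 ± 6.90 in Control libraries. Fosl2 ranged from 42.4 to 59.5 in FID libraries and from 60.6 to 105 in Control libraries. Annotated exons include rarely used ones, which can lower the values of long genes such as Fosb and Fosl2, with 6243 and 9680.0 exonic bases.

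The balance between genes was also read as ratios of raw counts within a library, which need no scaling between libraries. Fosb over Fos was 1.32, 0.983 and 1.29 in FID 1, 2 and 3, against 2.52, 2.10 and 1.73 in Control 1, 2 and 3, without overlap. Fosl1 over Fos was 0.0752, 0.0305 and 0.0434 in FID libraries, against 0.112, 0.107 and 0.0816 in Control libraries, also without overlap. Atf3 over Jun was 0.515, 0.860 and 0.695 in FID libraries, against 0.498, 0.344 and 0.379 in Control libraries, and here every FID library was the higher. Egr1 over Fos stayed near 1 in all libraries, at 0.916, 1.12 and 1.05 in FID, against 1.30, 1.01 and 1.21 in Control. Nr4a1 over Egr1 was 0.806, 0.411 and 0.512 in FID libraries, against 1.10, 0.949 and 0.717 in Control libraries, and FID 1 lay above Control 3. Fosl2 over Fos was 0.567, 0.406 and 0.396 in FID libraries, against 1.54, 0.753 and 0.551 in Control libraries. FID 1 lay above Control 3 in that ratio too. On the per-length scale, Fos made up 61.9 ± 4.27% of the 4 FOS genes in FID libraries and 47.2 ± 6.24% in Control libraries, and Fosb 27.8 ± 2.78% in FID libraries and 37.0 ± 2.14% in Control libraries (SD, n = 3 each). The JUN genes kept nearer proportions, with Junb at 70.8 ± 2.24% of the 3 in FID libraries and 72.4 ± 0.416% in Control libraries. In all, 9 ratios of raw counts were computed. Only Fosb over Fos, Fosl1 over Fos and Atf3 over Jun did not overlap between the groups. The ratios not given above, Junb over Jun, Jund over Jun and Atf3 over Fos, overlapped. All ratios were chosen after the values were seen and are given without a test, since 3 libraries against 3 allow no exact two-sided permutation p below 0.1.

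**Figure D3:**
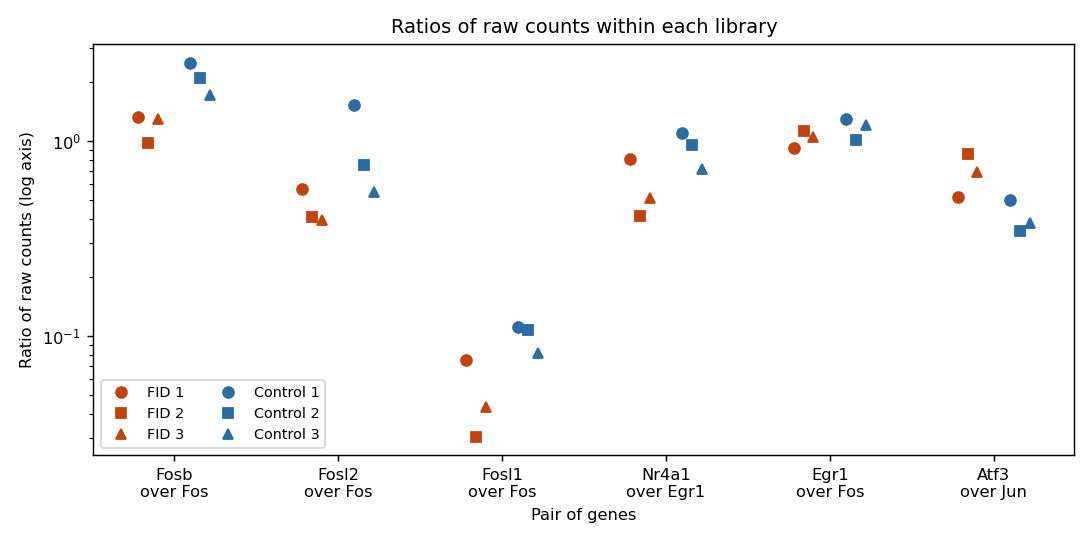
Ratios of raw counts between pairs of genes within each library, on a log axis, FID libraries left of Control libraries. Fosb over Fos lies at 0.983 to 1.32 in FID and 1.73 to 2.52 in Control, and Atf3 over Jun is the pair shown that is higher in every FID library.

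Over the 6 libraries the genes did not follow a single course. Centred on the mean of each gene, the average profile of the 10 genes in log2(CPM + 1) was -0.02, -0.25 and -0.35 in FID 1, 2 and 3, against 0.30, 0.25 and 0.07 in Control 1, 2 and 3. FID 1 was thus the highest of the FID libraries and Control 3 the lowest of the Control libraries. Jun lay nearest this profile, at a root mean square difference of 0.075, followed by Nr4a1 at 0.144 and Fosb at 0.170. Jund at 0.474, Fos at 0.458, Atf3 at 0.416 and Egr1 at 0.410 lay farthest from it. In Control 1, Fos was at -0.54 and Egr1 at -0.29 of their own means, while Jund was at 1.19, Fosl2 at 0.76 and Junb at 0.65.

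**Figure D4:**
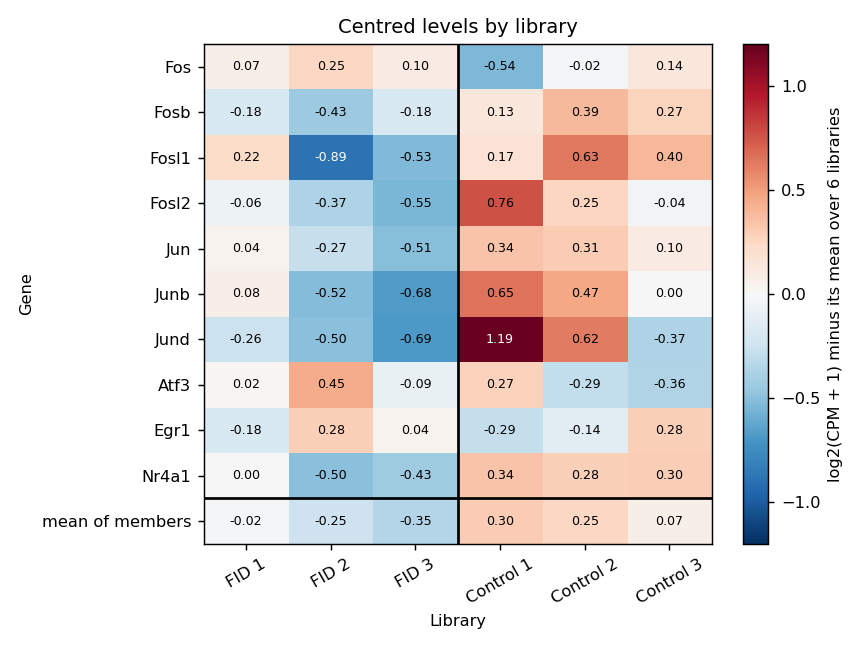
Level of each gene in each library as log2(CPM + 1) minus its mean over the 6 libraries, FID libraries left of the vertical line, with the average of the 10 genes in the bottom row. Jun, Junb, Jund, Fosl2 and Nr4a1 are below 0 in FID 2 and FID 3, whereas Fos and Egr1 are above 0 there and lowest in Control 1.

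The 5 genes outside the set with the profile nearest to that average were Kif1c, Ttll7, Ppfia1, Dctn1 and Cbx6, at root mean square differences of 0.024 to 0.040 over the 6 libraries. Kif1c, a kinesin motor gene, stood at 188, 161 and 156 CPM in FID 1, 2 and 3, against 235, 228 and 206 CPM in Control 1, 2 and 3. The 3 genes nearest to Fos alone were Lamtor3, which encodes a scaffold of MAP kinase signalling at late endosomes, Ppp1r7 and Armcx6, at 0.047 to 0.051. Lamtor3 stood at 41.9, 48.9 and 44.8 CPM in FID libraries, against 29.7, 42.8 and 44.9 CPM in Control libraries. These likenesses are descriptions over the same 6 libraries, of unequal depth, scaled with the same factors.

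Other immediate early genes also averaged lower for the most part. Of 38 listed, 37 were tested, 33 lay below 0 and 4 above, and the median log2 fold change was -0.47. None passed edgeR's adjusted test, while at an unadjusted p under 0.05 there were 12 lower and 1 higher, against 9.21% and 9.81% of all genes tested. DESeq2 called 4 of them lower and 0 higher, where it called 2.41% of all genes lower and 3.89% higher. Myc, the growth regulator, stood at 257, 236 and 194 CPM in FID 1, 2 and 3, against 371, 369 and 328 CPM in Control 1, 2 and 3 (log2 fold change -0.64, SE 0.15, edgeR adjusted p 0.136, DESeq2 adjusted p 0.00832). Zfp36l1, which encodes an RNA-binding protein that speeds decay of AU-rich messages, averaged 74.9 ± 13.7 CPM in FID and 138 ± 45.6 CPM in Control. Its adjusted p was 0.162 in edgeR and 0.0375 in DESeq2. Within the EGR family, Egr3 stood at 24.2, 12.5 and 13.3 CPM in FID libraries, against 35.0, 30.8 and 28.7 CPM in Control libraries. Adjusted p for Egr3 was 0.164 in edgeR and 0.0422 in DESeq2. Egr2, named after its values were seen, averaged 128 ± 8.67 CPM in FID and 134 ± 27.5 CPM in Control and overlapped, as Egr1 did. The NR4A relatives Nr4a2 and Nr4a3, likewise named afterwards, stood at 209.9 and 219 CPM in FID 1 but at 81.5 to 90.2 CPM in FID 2 and 3, against 184 to 252 CPM in Control libraries. Their log2 fold changes were -0.66 (SE 0.35) and -0.75 (SE 0.37), with edgeR adjusted p of 0.345 and 0.317.

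Of the 13 other leucine zipper genes whose products pair or compete with FOS and JUN proteins, 6 lay above 0 and 7 below, with a median of -0.05. DESeq2 called 2 of them higher and 0 lower, where it called 3.89% of all genes higher and 2.41% lower. Maf, also known as a macrophage regulator, stood at 127, 112 and 126 CPM in FID 1, 2 and 3, against 80.3, 89.7 and 65.0 CPM in Control 1, 2 and 3 (log2 fold change 0.64, SE 0.15, edgeR adjusted p 0.136, DESeq2 adjusted p 0.0148). Every FID library lay above every Control library, as it did for the summed macrophage markers. Batf2, known to respond to interferon, stood at 2.37, 13.1 and 4.97 CPM in FID libraries, against 1.58, 0.912 and 1.07 CPM in Control libraries. For Batf2 the adjusted p was 0.140 in edgeR and 0.00723 in DESeq2. Batf averaged 5.21 ± 0.0784 CPM in FID and 3.25 ± 1.35 CPM in Control (edgeR adjusted p 0.296).

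Genes upstream of the early response lay on both sides, with 8 of 19 above 0, 11 below and a median of -0.01. Srf, the serum response factor gene, averaged 55.5 ± 6.26 CPM in FID and 75.2 ± 7.60 CPM in Control, with no overlap (log2 fold change -0.44, SE 0.14, edgeR adjusted p 0.179). Map2k1, which encodes the kinase MEK1, averaged 108 ± 19.5 CPM in FID and 76.9 ± 8.90 CPM in Control (log2 fold change 0.49, SE 0.17, edgeR adjusted p 0.196). Mrtfb, a coactivator of SRF, stood at 21.9 to 27.6 CPM in FID libraries, against 84.5 CPM in Control 1, 35.5 CPM in Control 2 and 25.5 CPM in Control 3. Feedback genes of the pathway, the MAP kinase phosphatases, Sprouty and Spred genes and EGR co-repressors, lay below 0 in 11 of 14 cases with a median of -0.35. At an unadjusted p under 0.05, 3 were lower and 0 higher, where 9.21% of all genes tested were lower and 9.81% higher, and 52.2% of all lay below 0. Spred2, an inhibitor of RAS signalling to MAP kinase, averaged 24.2 ± 2.38 CPM in FID and 35.0 ± 8.19 CPM in Control (edgeR adjusted p 0.214). Dusp8, a phosphatase gene, had a log2 fold change of -1.36 (SE 0.54), and Spry4, a Sprouty gene, one of -0.76 (SE 0.31), each with its highest level in Control 1.

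Textbook targets of AP-1 did not lean one way, with 5 of 12 tested above 0, 7 below and a median of -0.05. Spp1, the osteopontin gene, which macrophages also express, stood at 1887, 2839.6 and 1996 CPM in FID 1, 2 and 3, against 1018, 1169 and 1280.1 CPM in Control 1, 2 and 3 (log2 fold change 0.96, SE 0.19, edgeR adjusted p 0.136, DESeq2 adjusted p 0.00129). Il6, a cytokine gene, stood at 108, 91.7 and 43.5 CPM in FID libraries, against 258, 96.9 and 196 CPM in Control libraries (log2 fold change -1.18, SE 0.43, edgeR adjusted p 0.207).

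Many of the same genes are known to be induced when tissue is digested to free cells, and the labels do not say whether these libraries went through such a step. A list of 24 such genes, which holds none of the 10 above but shares 8 with the other early genes and 10 with the heat shock genes, summed to 7593.5, 7466 and 7441 CPM in FID 1, 2 and 3, against 8843, 8019 and 8143 CPM in Control 1, 2 and 3. The groups did not overlap in this sum, and of the 24 genes 17 lay below 0, with a median of -0.23, 7 being lower and 0 higher at an unadjusted p under 0.05. Of all genes tested, 52.2% lay below 0, and 9.21% were lower and 9.81% higher at that p. DESeq2 called 3 of the 24 genes lower and 0 higher. The metallothionein genes Mt2 and Mt1 averaged 118 ± 27.1 and 80.1 ± 22.9 CPM in FID, against 199.8 ± 16.9 and 138 ± 24.7 CPM in Control. For Mt2 and Mt1 the adjusted p was 0.138 and 0.164 in edgeR, and 0.0137 and 0.0438 in DESeq2. Heat shock genes lay evenly on both sides, with 7 of 14 above 0 and a median of 0.04, and their summed level was 6863 to 7374 CPM in FID libraries, against 5558 to 8054 CPM in Control libraries. Hspb1, a small heat shock protein gene, stood at 37.4, 35.9 and 35.3 CPM in FID libraries, against 64.7, 56.7 and 57.6 CPM in Control libraries (log2 fold change -0.72, SE 0.12, edgeR adjusted p 0.122, DESeq2 adjusted p 3.99e-04). Bag3, a co-chaperone gene, had a log2 fold change of -0.61 with an SE of 0.16 and an adjusted p of 0.141 in edgeR, and Dnajb4 one of -0.36 (SE 0.16, edgeR adjusted p 0.270). The part of cell isolation or of other handling in the levels of the 10 genes was not tested.

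**Figure D5:**
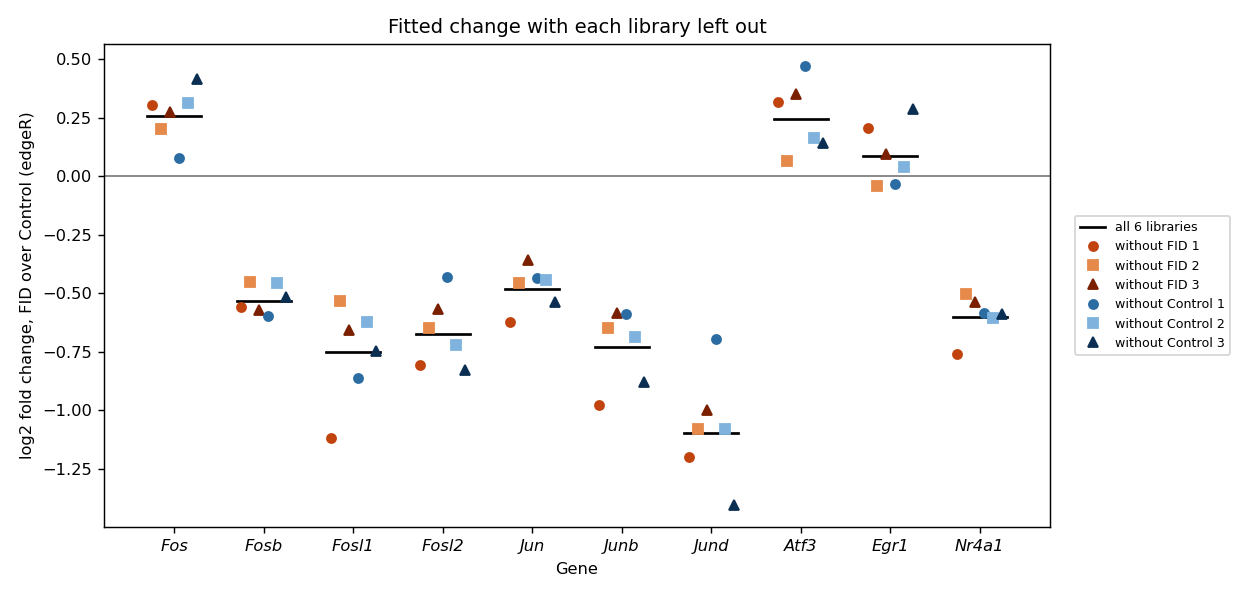
Log2 fold change of each gene, FID over Control, with all 6 libraries (black line) and with each library left out in turn (symbols). The 7 genes that averaged lower stay below 0 in every case, Fos and Atf3 stay above 0, and Egr1 takes either sign.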

How the data were processed

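The deposited files hold raw read counts for each Ensembl gene. The authors' processing, per the submitters' processing notes, used build mm10 and named Bowtie2 2.5.4, STAR, cutadapt, SAMtools, HTSeq and DESeq2, with no roles. Not given in the sources used here were the strand setting and the annotation release, and reads aligned to several places were set aside, per the deposited files. Entries that name no gene (9.60% to 10.9% of each file) were left out. Symbols matched 42462 of 43432 genes, and coordinates and exon lengths came from GENCODE M21. Genes were filtered with filterByExpr (minimum count 10, minimum total 15), scaled with TMM and tested with edgeR 4.0.16's two-sided quasi-likelihood test with group as the only term, with p-values adjusted over all 12881 genes kept. Each SE is the size of the log2 fold change over the root of its F statistic. DESeq2 1.42.0, limma 3.58.1, other scalings, other filters, a replicate block and leaving out each library were alternatives. A count of 0 allows up to 3 counts, or 0.293 to 0.593 CPM, for counting error only. Library pairs within a group differed by 14.1 to 46.0 chi-square units per degree of freedom, far beyond sampling noise. FID 1 differed from FID 2 and 3 by 42.8 and 28.7 such units, and from Control 1, 2 and 3 by 36.1, 24.4 and 34.4. On this measure FID 1 was nearer to Control 2 than to either other FID library. FID 2 and 3 differed from the Control libraries by 59.2 to 90.0.

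The 10 genes and the lists were chosen with earlier results of these data known. Genes named were the 10, up to 3 genes of smallest unadjusted p from each other list not made of cell type markers, and those of nearest profile, and others are said to be named afterwards. A gene of the AP-1 target list that the rule would name is not reported here.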

Additional observations from a re-analysis of the deposited data

How the results depend on the processing

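Of 140 alternative values for the single genes, 126 kept their direction and their side of the threshold, 12 passed it in the same direction and 2 changed sign, both for Egr1, at -0.040 without FID 2 and -0.031 without Control 1, its values with each library left out ranging from -0.040 to 0.29. The count of genes called over all genes was 0 with TMM, with DESeq2 size factors, with total counts, with the stricter filter and with limma-voom, but 269 with no filter, 764 with DESeq2 and 1531 with limma-voom with sample weights. The number of the 10 genes called was 3 with DESeq2 and 7 with limma-voom with sample weights, all of them lower. With each library left out, edgeR called 0 to 359 of all genes and 0 to 2 of the 10, the upper values without FID 1, where Fosl1 and Nr4a1 passed. Without Control 1 it called 3 of all genes and 0 of the 10. The median over the 10 genes then ranged from -0.69 to -0.48. The number of the 10 that did not overlap ranged from 4 to 7, the upper value being reached without FID 1, where 40.8% of all genes tested did not overlap, and without Control 3, where 39.8% did not. All 7 were lower in FID libraries without FID 1, whereas 6 were lower and 1 higher without Control 3. Without Control 1 there were 5 lower and 1 higher. The cause of these shifts was not tested, beyond the smaller number of libraries. With the replicate number as a block, 0 genes and 0 of the 10 were called, and the median was -0.58. For libraries with the same number, the labels give nothing else that pairs them. Their deviations from the group means correlated at -0.01, -0.32 and 0.34 for numbers 1, 2 and 3. Not every library correlated best with its own number, but 3 libraries per group cannot settle whether they are paired. Depth limits the weakly expressed genes of the lists, such as Batf2 with 8 to 11 counts in Control libraries, whereas the 10 genes had at least 333 counts in every library.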

Other observations

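Among genes of the integrated stress response, which lies beside Atf3, 5 of 8 tested were above 0 and 3 below, with a median log2 fold change of 0.06, FID over Control. Ddit3, which encodes the stress factor CHOP, stood at 11.4, 26.2 and 19.0 CPM in FID 1, 2 and 3, against 10.5, 6.99 and 9.57 CPM in Control 1, 2 and 3. Every FID library lay above every Control library, with FID 1 close to Control 1 (log2 fold change 1.08, SE 0.32, edgeR adjusted p 0.166, DESeq2 adjusted p 0.0496). Atf5 averaged 96.3 ± 20.9 CPM in FID and 83.1 ± 17.2 CPM in Control, and Sesn2 24.9 ± 2.62 CPM in FID and 27.3 ± 1.27 CPM in Control (SD, n = 3 each), with edgeR adjusted p of 0.627 and 0.632. Of the 37 tested early genes outside the 10, 10 were lower in every FID library than in any Control library, and 2 were higher. Of all genes tested, 12.3% were lower and 13% higher in this way. The 2 higher genes were Ccn1 and Plk2, named after their values were seen. Ccn1, a secreted matricellular protein gene, stood at 498, 500.4 and 588 CPM in FID libraries, against 254, 383 and 497 CPM in Control libraries. Plk2, a kinase gene, averaged 125 ± 4.83 CPM in FID and 98.5 ± 8.50 CPM in Control (SD, n = 3 each).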
